A study of Homo sapiens with 4 samples.

Results

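The genes described here are 10 transcription and splicing factors that epithelial cells use to keep their identity: ESRP1, ESRP2, GRHL1, GRHL2, GRHL3, OVOL1, OVOL2, ELF3, EHF and KLF5. They were taken by name from the annotation of the array, which lists each of the 10 under its current symbol, and they stand among 18118 genes that had a probe set of their own. They were read by 31 of the 44988 probe sets annotated to 1 gene. UM1, an established line of tongue squamous cell carcinoma, was the cell studied, and the culture medium of the study was DMEM with foetal bovine serum. The cells grew for 7 days in 16.7 mM glucose (high glucose, 2 arrays) or in 5.6 mM glucose (normal glucose, 2 arrays). The comparison asks which of these factors differ in RNA between the 2 glucose levels. All cells come from 1 line, so the comparison describes UM1 only, and in RNA from whole cultures fewer cells that express a gene and less RNA per cell cannot be told apart.

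Epithelial cells form sheets that are sealed by junctions, and the factors of this group act at different steps of that programme. Grainyhead-like proteins (GRHL) bind and activate genes of cell junctions, and OVOL proteins are zinc finger repressors that hold back mesenchymal genes, ZEB1 among them. ELF3 and EHF belong to the epithelium-specific branch of the ETS family, and KLF5 is a zinc finger activator of proliferating epithelial cells. The ESRP proteins bind RNA and choose epithelial exons, for example the epithelial form of the FGFR2 receptor. Slug, the product of SNAI2, belongs to the opposing group of repressors that bind E-boxes in epithelial promoters.

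Of these factors, 4 were lower in high glucose and none was higher. ELF3 fell by a factor of 9.10, the largest of the 10, and ESRP1, GRHL1 and ESRP2 fell by factors of 2.17, 1.71 and 1.58. GRHL2, EHF and KLF5 were not called, and the 2 OVOL genes were slightly lower without passing the test. In numbers, 4 of 10 were lower and 0 of 10 were higher at an adjusted p under 0.05 (limma over all 18118 genes, Benjamini-Hochberg), where 22.2% of all genes were called lower and 15.5% were called higher. The median log2 difference of the 10 was -0.27, beside -0.033 over all genes tested. At the fold and p thresholds of the methods, applied to the limma fit, 4 of the 10 were also lower, and 13.4% of all genes were.

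**Figure D1:**
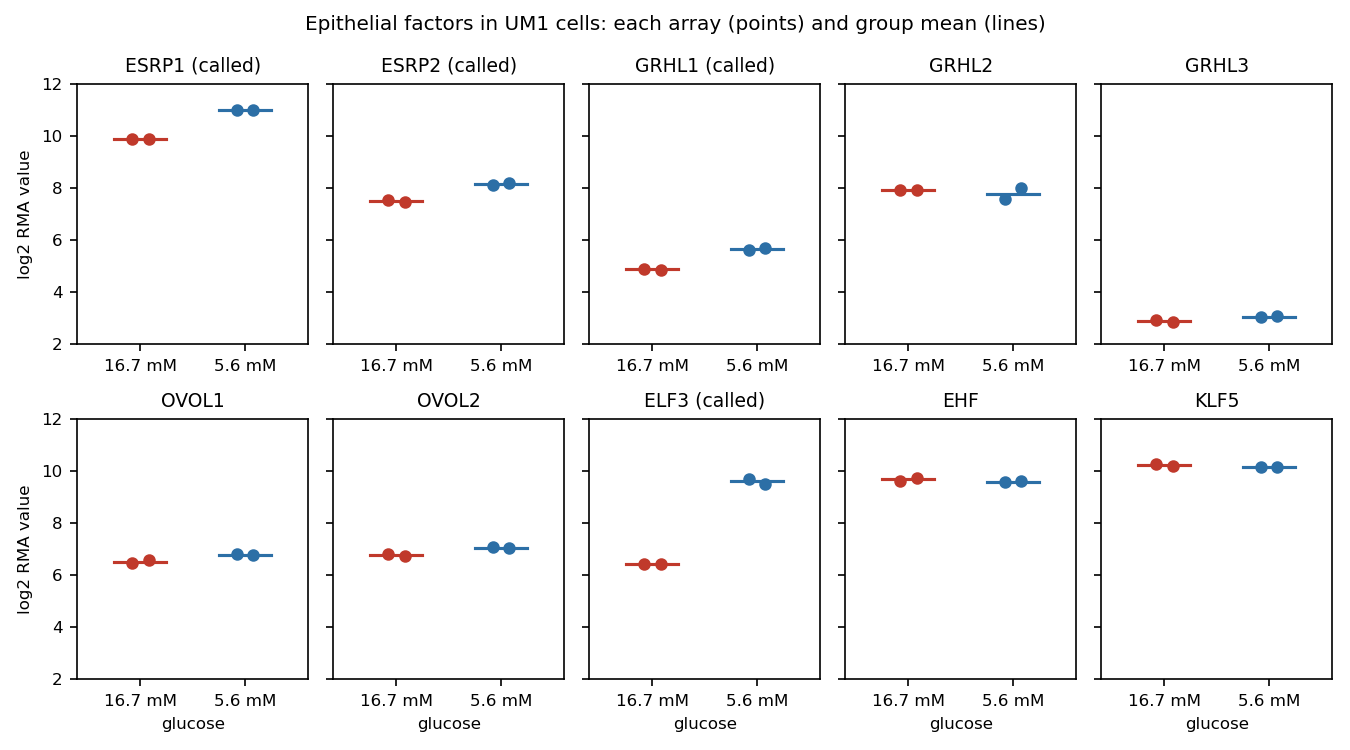
Log2 RMA value of the brightest probe set of each factor (vertical axis) in high glucose (16.7 mM, left) and normal glucose (5.6 mM, right); points are arrays and lines are group means of 2 arrays. The points of ELF3 lie at 6.43 in high glucose and at 9.51 and 9.72 in normal glucose, whereas those of KLF5 lie between 10.16 and 10.29 in both.

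The upstream sequences of 3 factors are printed to show where the E-box CACCTG, which the protein of SNAI2 binds, was present or absent. Whether that protein acts on any of these factors was not tested. ELF3 and GRHL1 are shown as 2 of the 4 factors that fell. Among the factors whose windows were read, GRHL3 is shown as the other one with a window that held this E-box. Each runs over the 250 bases before a RefSeq transcription start (GRCh38.p14, plus strand, written 5′ to 3′), and the capitals mark the E-box. The windows are chr1:202010337-202010586 for ELF3, chr2:9951443-9951692 for GRHL1 and chr1:24319107-24319356 for the upstream start of GRHL3.
ELF3: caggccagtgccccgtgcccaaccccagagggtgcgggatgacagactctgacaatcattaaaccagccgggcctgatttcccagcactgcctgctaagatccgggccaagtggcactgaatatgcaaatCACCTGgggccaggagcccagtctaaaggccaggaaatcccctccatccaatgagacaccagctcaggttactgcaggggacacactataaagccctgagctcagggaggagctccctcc
GRHL1: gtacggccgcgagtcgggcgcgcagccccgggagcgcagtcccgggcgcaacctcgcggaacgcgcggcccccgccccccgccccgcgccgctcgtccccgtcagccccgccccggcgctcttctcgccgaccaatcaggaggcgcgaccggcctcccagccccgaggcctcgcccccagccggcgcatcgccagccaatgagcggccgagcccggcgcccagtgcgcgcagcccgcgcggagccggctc
GRHL3: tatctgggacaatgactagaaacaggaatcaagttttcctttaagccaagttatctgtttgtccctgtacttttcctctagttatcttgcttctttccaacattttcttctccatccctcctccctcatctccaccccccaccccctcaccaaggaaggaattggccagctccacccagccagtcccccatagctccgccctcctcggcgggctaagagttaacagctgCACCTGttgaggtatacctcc
Windows from the RefSeq promoter table were read for 5 of the 10 factors (ELF3, GRHL1, GRHL3, EHF and KLF5), with 8 starts in all. The remaining factors were not searched, so whether a motif lies before them was not tested. CACCTG on either strand was present once before ELF3, 120 bases before the start counted from the first base of the motif, and once before the upstream start of GRHL3, at 21 bases. It was absent from the windows of GRHL1, EHF and KLF5. Over all 35116 windows of the same length in the table, 17.5% held it. CACGTG, which MondoA and ChREBP can bind, and AACCGGTT, a grainyhead motif, were in none of the 8 windows and in 6.34% and 0.117% of all windows. AACCGGTT and CACGTG read the same on both strands, none of the motifs overlapped, and a match describes only these letters.

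ELF3, an ETS factor of epithelial differentiation, had log2 values of 6.43 and 6.43 in high glucose, against 9.72 and 9.51 in normal glucose. Both high glucose arrays lay below both normal glucose arrays, with a gap of 3.08 log2 units. The gene was lower by a factor of 9.10 (95% interval 7.64 to 10.8). On the log2 scale this was -3.19 with an SE of 0.102 (2 arrays in each group, limma adjusted p = 1.31e-05). This placed it at position 42 from the lowest difference of all 18118 genes. Its 2 other probe sets gave -3.26 and -2.38, so all 3 were lower, and each was called when every probe set was tested separately. The third of them was dimmer, with 3.90 and 3.77 in high glucose and 6.22 and 6.22 in normal glucose.

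EHF, the other epithelial ETS factor of the 10, was not called. Its brightest probe set read 9.62 and 9.75 in high glucose, against 9.59 and 9.61 in normal glucose, and a gap of 0.0091 log2 units separated the groups. The log2 difference was 0.085 (95% interval -0.14 to 0.31, adjusted p = 0.546 from limma), which leaves room for a factor of 1.10 downwards and 1.24 upwards. The 8 probe sets of EHF went both ways, from -0.48 to 0.18 on the log2 scale, 4 below and 4 above 0. Of these 8, 1 was called lower on its own, with 5.82 and 6.16 in high glucose and 6.38 and 6.56 in normal glucose (adjusted p = 0.0428 from limma over all probe sets). The annotation does not say which transcript form each probe set reads.

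KLF5, which drives growth of basal epithelial cells, had 10.29 and 10.19 in high glucose, against 10.16 and 10.18 in normal glucose. All 4 arrays lay within 0.13 log2 units of each other. The log2 difference was 0.071 (SE 0.0874, 95% interval -0.15 to 0.29, adjusted p = 0.598 from limma). None of its 3 probe sets was called, and they ranged from -0.13 to 0.071.

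ESRP1, the splicing factor that favours epithelial exons, read 9.88 and 9.89 in high glucose, against 11.01 and 11.01 in normal glucose. The arrays of a group differed by at most 0.0102 log2 units, and the groups did not overlap. ESRP1 was lower by a factor of 2.17 (95% interval 1.89 to 2.50), which is -1.12 on the log2 scale with an SE of 0.0822 (2 arrays in each group, limma adjusted p = 0.000216). The second probe set of ESRP1 gave -1.24. ESRP2, its paralogue with overlapping targets, read 7.54 and 7.48 in high glucose, against 8.13 and 8.21 in normal glucose. It was lower by a factor of 1.58 (95% interval 1.36 to 1.83, adjusted p = 0.00199 from limma), through the only probe set it has. The difference between the falls of the 2 paralogues was not tested.

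The 3 grainyhead-like genes did not move together. GRHL1, which controls desmosomal genes in skin, read 4.88 and 4.88 in high glucose, against 5.62 and 5.70 in normal glucose. Both high glucose arrays were lower, by a factor of 1.71 (95% interval 1.48 to 1.99, log2 SE 0.0859, 2 arrays in each group, limma adjusted p = 0.00102). Of its 3 probe sets 2 were called lower, at -0.78 and -0.62. The other one read 4.87 and 4.42 in high glucose and 4.67 and 4.39 in normal glucose, so that its groups overlapped. With the median of the 3 probe sets in place of the brightest one, the difference was -0.35 and the call ended (adjusted p = 0.0695 from limma). That median came from the overlapping probe set on high glucose replicate 1 (4.87). On the other arrays it came from the probe set at -0.62, so unlike probe sets were compared.

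GRHL2, which maintains junctions and E-cadherin in many epithelia, read 7.95 and 7.95 in high glucose, against 7.60 and 8.01 in normal glucose. The high glucose arrays lay between the 2 normal glucose arrays, and normal glucose replicate 1 was the low one. Without that array the log2 difference turned to -0.057. The log2 difference was 0.15 (SE 0.146, 95% interval -0.21 to 0.51, adjusted p = 0.509 from limma). All 5 probe sets of GRHL2 had a difference above 0, from 0.023 to 0.34, and 1 of them was called higher on its own. That probe set read 5.69 and 5.66 in high glucose, against 5.32 and 5.34 in normal glucose (adjusted p = 0.0276 from limma over all probe sets). This is the largest of the 5 differences. On all 4 arrays the same probe set was also the median level of the 5, so that taking the median in place of the brightest one read this probe set alone (0.34, adjusted p = 0.0177 from limma).

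GRHL3, which acts in barrier formation of the surface epithelium, lay among the dimmest values of the arrays. Its only probe set read 2.95 and 2.85 in high glucose, against 3.04 and 3.10 in normal glucose, at or below the 25th percentile of every array (3.26 to 3.32), so no fold is given. It is the only one of the 10 at that level.

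The OVOL genes had small differences of about the same size. OVOL1 read 6.47 and 6.58 in high glucose, against 6.80 and 6.78 in normal glucose, and OVOL2 read 6.82 and 6.75 in high glucose, against 7.08 and 7.03 in normal glucose. In both genes the high glucose arrays were below the normal glucose arrays without overlap. The log2 difference was -0.27 for each, a factor of 1.21 lower, and neither passed over all genes (adjusted p = 0.0604 for OVOL1 and 0.0541 for OVOL2 from limma). The other probe set of OVOL2 gave -0.29, whereas the other 2 of OVOL1 gave 0.0092 and -0.042. When each array was centred on its median, both genes passed (adjusted p = 0.0392 for OVOL1 and 0.0313 for OVOL2 from limma).

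**Figure D2:**
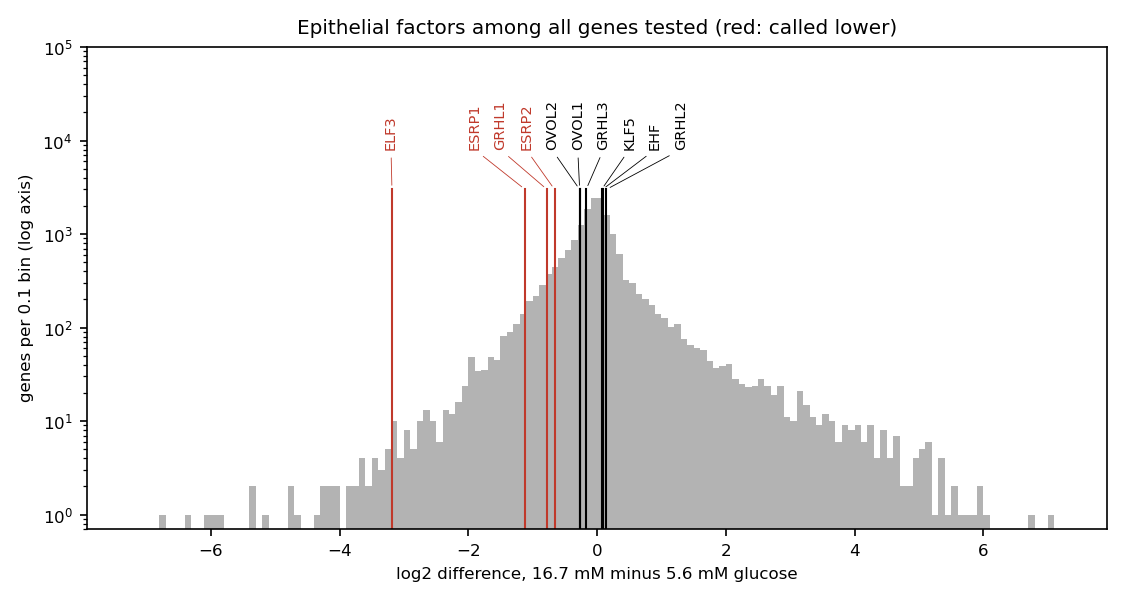
Number of genes per bin of 0.1 in log2 difference, high minus normal glucose, on a log axis, with the 10 factors as vertical lines; red marks those called lower. ELF3 lies at -3.19, far into the lower tail, ESRP1, GRHL1 and ESRP2 lie between -1.12 and -0.66, and the other 6 lie between -0.27 and 0.15.

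Over single arrays, 7 of the 10 factors had both high glucose arrays below both normal glucose arrays, as 37.3% of all genes did, and 2 of 10 had both above, as 27.5% of all genes did. The 7 include GRHL3, which was dim on every array. The 2 are EHF and KLF5, with gaps of 0.0091 and 0.012 log2 units. Arrays of the same group differed by up to 0.14 in EHF and 0.10 in KLF5. GRHL2 was the gene whose groups overlapped. Over the 31 probe sets, 9 were called lower and 1 was called higher, and 21 were not called, where 20.6% and 15.3% of the probe sets annotated to 1 gene were called lower and higher. The 9 lower ones were read from ELF3 (3), ESRP1 (2), GRHL1 (2), ESRP2 (1) and EHF (1). Probe sets of 1 gene share its RNA and are not replicates.

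**Figure D3:**
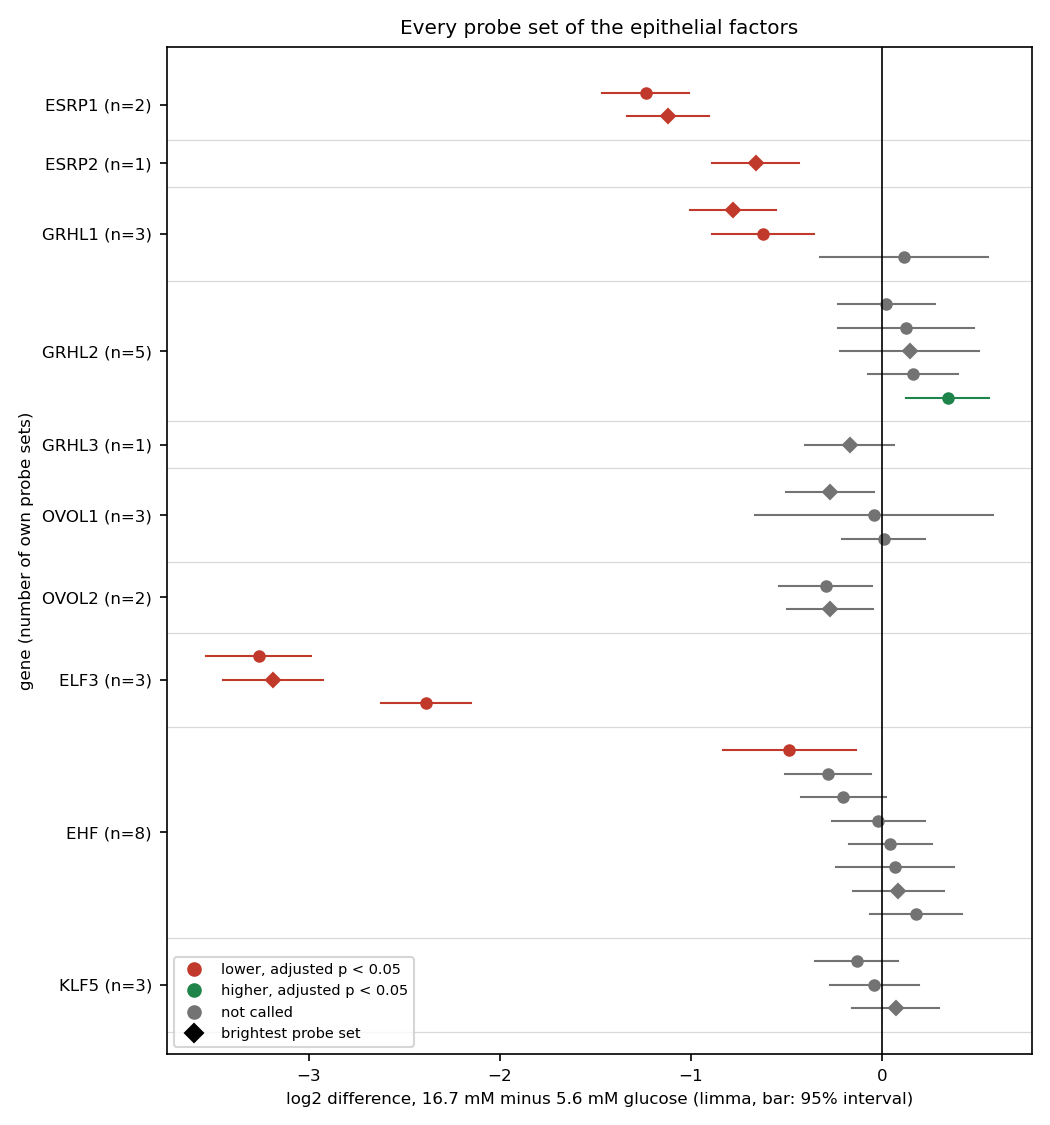
Log2 difference, high minus normal glucose, of each of the 31 probe sets (horizontal axis, bars are 95% intervals from limma), grouped by gene; diamonds mark the brightest probe set and colours the calls. All 3 probe sets of ELF3 lie at or below -2.38, those of EHF spread around 0, and those of GRHL1 split into 2 that were lower and 1 that was not.

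Other genes of the same protein families moved in both directions. Among 24 relatives measured, 8 rose and 6 fell in high glucose, with a median log2 difference of 0.023. KLF4, a differentiation factor of stratified epithelium, read 7.80 and 8.04 in high glucose, against 9.98 and 10.03 in normal glucose, and was lower by a factor of 4.24 (adjusted p = 6.11e-05 from limma). KLF15 was lower by a factor of 3.90. KLF6 and KLF7 were 3.45-fold and 3.34-fold higher. Of the broadly expressed ETS genes, ELF1, ELF2 and ELF4 were 1.25-fold, 1.49-fold and 1.33-fold higher. The epithelial relative ELF5 was dim, below the 25th percentile on all 4 arrays.

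Among the repressors that oppose these factors, only SNAI2 was called of the 7 measured. It read 11.27 and 11.22 in high glucose, against 8.49 and 8.35 in normal glucose, with no overlap, and was 7.10-fold higher (adjusted p = 1.40e-05 from limma). ZEB1, the repressor that OVOL2 and GRHL2 are known to hold back, read 2.66 and 2.58 in high glucose and 2.66 and 2.91 in normal glucose, at or under the 25th percentile of every array. TWIST1 was not called (high over normal glucose 1.11, adjusted p = 0.22 from limma), with 7.01 and 7.03 in high glucose, against 6.82 and 6.90 in normal glucose.

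RNA-binding proteins that act with or against the ESRPs were divided as well. Of 15 measured, 5 were higher and 5 were lower, with a median log2 difference of 0.11. RBM47, another epithelial splicing factor, read 7.36 and 7.40 in high glucose, against 8.24 and 8.31 in normal glucose, and was lower by a factor of 1.85 (adjusted p = 0.000607 from limma). RBFOX2, which favours mesenchymal exons, read 9.49 and 9.50 in high glucose, against 8.71 and 8.62 in normal glucose, and was 1.78-fold higher (adjusted p = 0.000817 from limma). QKI, also known for mesenchymal splice forms, was lower by a factor of 1.73, and KHDRBS1 was 1.91-fold higher. Of 14 genes with ESRP-controlled exons, 4 were higher and 6 were lower as whole genes. ENAH, an actin regulator, was 4.97-fold higher, FNIP1 was lower by a factor of 3.49, SLC37A2 by 2.07 and OSBPL3 by 1.93. The values are per gene, so exon choice was not measured.

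Genes described as targets of the factors showed no common direction. Of 12 grainyhead targets, 4 were higher and 4 were lower (median -0.086). EPCAM, an adhesion protein, read 7.75 and 8.22 in high glucose, against 11.03 and 11.28 in normal glucose. It was lower by a factor of 8.99, and TGM1, a transglutaminase of the cornified layer, and RAB25, a vesicle protein, were lower by factors of 1.93 and 1.70. CDH1, the gene of E-cadherin, was 1.42-fold higher, with 10.21 and 10.30 in high glucose, against 9.72 and 9.77 in normal glucose (adjusted p = 0.00591 from limma). Of 10 targets of ELF3, EHF or KLF5, 4 were higher and 4 were lower (median 0.073). This list was not split by factor. The largest falls were those of LCN2, an iron-binding secreted protein, by a factor of 56.3, and of the claudin CLDN7, by a factor of 8.97. FGFBP1 and BIRC5 were 35.2-fold and 22.3-fold higher, and the lower of the normal glucose arrays of FGFBP1 lay at 3.16, below the 25th percentile of that array. Of the rest, CCND1 and SPRR2A were lower by factors of 2.23 and 1.28, and PDGFA and TNFRSF11A were 1.85-fold and 1.94-fold higher. The lower normal glucose array of TNFRSF11A, at 2.87, was also below the 25th percentile. SPRR2A lay just above the 25th percentiles (3.26 to 3.32) in high glucose, with 3.38 and 3.32, against 3.73 and 3.69 in normal glucose. TGFBR2 and TGM3 were not called.

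**Figure D4:**
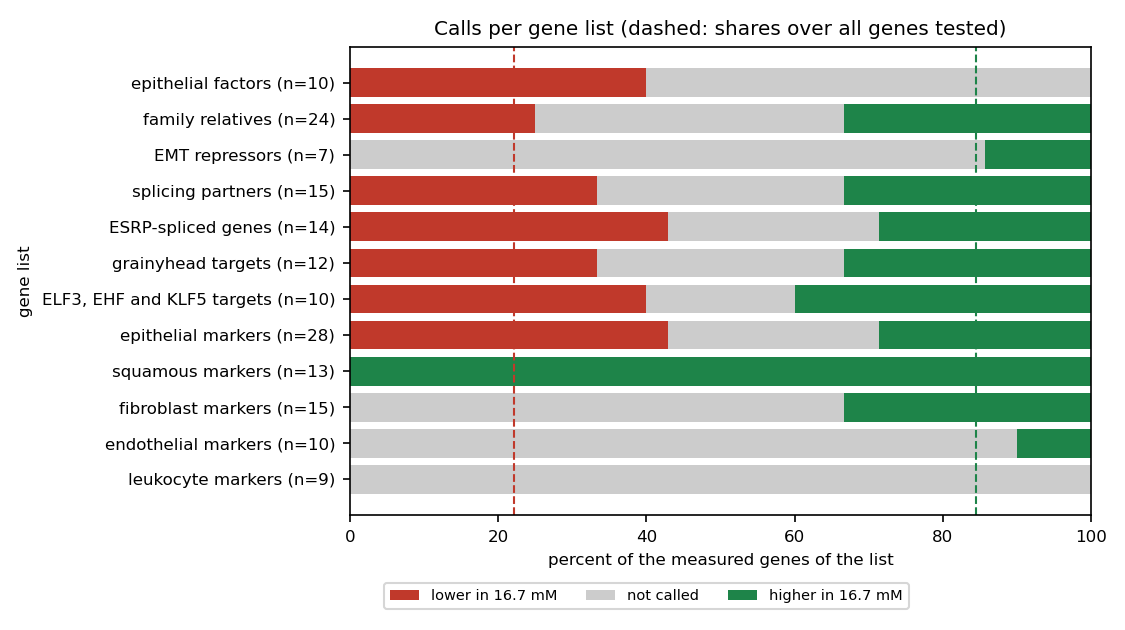
Percent of the measured genes of each list that were called lower (red), not called (grey) or called higher (green) in high glucose, with the shares over all genes tested as dashed lines (22.2% lower on the left, 15.5% higher on the right). The 10 epithelial factors hold 4 lower and 0 higher genes, and all 13 squamous markers analysed were higher.

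Markers of the cells frame these values. Among 28 epithelial markers, 12 fell and 8 rose (median -0.16), and MAL2 and OCLN, a vesicle and a junction protein, were lower by factors of 11.3 and 7.11. In the same list DSP, PKP3 and JUP, genes of desmosomes, were 4.02-fold, 3.19-fold and 3.15-fold higher. The keratins of this list went both ways: KRT7 was 2.24-fold higher, KRT18 was lower by a factor of 4.64, and KRT8 and KRT19 were not called. All 13 squamous markers analysed, of 19 listed, were higher (median 2.32), with KRT15 at 30.8-fold. Of 15 fibroblast markers, 5 were higher and 0 were lower, with a summed linear level of 12572 to 12659 in high glucose, against 306.3 to 329.6 in normal glucose. COL3A1 and FAP, at 131-fold and 62.6-fold, carried that sum, while LUM, PDGFRA, THY1, TCF21, MEOX2 and DPT were dim in the same sense on all 4 arrays. Of the endothelial markers 1 of 10 was called, TEK (2.05-fold higher), with EMCN dim on all 4 arrays, and of the leukocyte markers 0 of 9, with PTPRC, CD3D and LYZ dim on all 4 arrays. These lists had summed levels of 211.9 to 230.6 and 203.0 to 204.8 in high glucose, against 209.0 to 210.6 and 182.7 to 204.2 in normal glucose. For RNA integrity, the beta-actin control probe sets gave a 3′ minus 5′ value (log2) of 0.35 and 0.42 in high glucose, against 0.71 and 0.74 in normal glucose. Those of GAPDH gave 0.080 and 0.12 in high glucose, against 0.24 and 0.13 in normal glucose, a smaller difference. The part of these differences in the values of the epithelial factors was not tested.

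Over the whole array, replicates correlated at 0.996 in high glucose and 0.997 in normal glucose, and arrays of unlike groups at 0.946 to 0.947, a description across probe sets that are no replicates of each other. An exact permutation test of 1 gene (two-sided) cannot go below p = 0.333 here. The limma calls use a variance that is partly shared over all genes. The labels call the arrays biological replicates, and whether they came from separate cultures is not stated, so the p-values measure the spread between these arrays.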

How the data were processed

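Total RNA from UM1 cells in high (16.7 mM) or normal (5.6 mM) glucose was hybridised to 4 arrays. From the scans the authors, using GCOS and RMA, made and deposited log2 values per probe set, already background-corrected and normalised between arrays. RMA draws dim probe sets together, which can understate a change. Tool versions were not stated in what was read here. The methods name another Affymetrix array, but the probe set names are those of PrimeView, whose annotation was used.

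Of 49395 probe sets, 44988 were annotated to 1 gene. Symbols were updated through gene identifiers of the GRCh38.p14 RefSeq table. Each gene was represented by its brightest own probe set. High and normal glucose were compared with limma 3.58.1 (lmFit, eBayes) in R 4.3.3 with Benjamini-Hochberg adjustment over 18118 genes and a threshold of 0.05. Single probe sets were tested in a second fit over all non-control probe sets. The methods' thresholds were a fold over 1.5 or under 0.67 with an unadjusted p under 0.05. A gene at or under the 25th percentile of every array of a group was treated as dim. The limma fit was also run on simulated data. These held far fewer changed genes than were called here, so that run does not give the error rates of this comparison. Tables were made with pandas 2.3.3 and numpy 2.4.6 in Python 3.11.15.

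The members and lists were chosen with earlier results of these data known. The lists, written from textbook knowledge, are counted and given no test of their own. All 10 members are named, with up to 4 called genes of the largest difference per list. ELF1, ELF2, ELF4, ELF5, ZEB1, TWIST1, DSP, PKP3, JUP, KRT7, KRT8, KRT18 and KRT19 were named after their values were seen. The same holds for CCND1, SPRR2A, PDGFA, TNFRSF11A, TGFBR2 and TGM3. The number of arrays limits the precision. Alternatives were other choices of probe set, a filter on mean level, a floor and further scaling. They also covered limma-trend, the methods' t-test and thresholds, the replicate block, and each array left out.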

Additional observations from a re-analysis of the deposited data

How the results depend on the processing

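ELF3, ESRP1 and ESRP2 kept their direction and their call under every alternative that could be computed, 16 for ELF3 and 17 for the other 2. ELF3 has only probe sets ending in _s_at, so it had no value when those ending in _x_at or _s_at were left out, and GRHL3 had none with dim genes left out or values raised to the 25th percentile. With the median of all own probe sets, GRHL1 lost its call (-0.35, read from unlike probe sets across the arrays). In the same setting GRHL2 was called higher (0.34, the value of 1 probe set, the largest of its 5), making 1 member higher, and KLF5 turned to -0.039. EHF turned to -0.018 without the probe sets ending in _x_at or _s_at, and GRHL2 ranged from -0.057 (without normal glucose replicate 1) to 0.35 (without normal glucose replicate 2) when an array was left out. OVOL1 and OVOL2 passed with the level filter (adjusted p = 0.0206 and 0.0177 from limma over the genes kept). Both passed with values raised to the 25th percentile (0.0327 and 0.0278) and with arrays centred on their median (0.0392 and 0.0313). OVOL2 also passed with the median of its probe sets (0.0429) and with limma-trend (0.0365). When each array was left out in turn, the spread came from the group that kept 2 arrays, and the lone array was assumed to vary like it. In these fits 4 members were lower and 0 higher, and over all genes 2063 to 2114 were higher and 2718 to 2846 lower, against 2809 and 4021 with all arrays. Fewer arrays entered these fits, and the cause of these changes was not tested.

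Over all genes, 7449 higher and 10068 lower probe sets were called when every probe set was tested separately, where the number tested was 49293. The methods' t-test called 1347 higher and 1667 lower genes after Benjamini-Hochberg adjustment, and 1768 higher and 2218 lower at the methods' thresholds. Those thresholds on the limma fit gave 1930 higher and 2433 lower. By their brightest probe sets, the same 4 members were lower in each of these. When probe sets were tested separately, 1 dimmer probe set of EHF was also lower and 1 of GRHL2 was higher. Whether the replicate numbers pair the arrays is not stated. Across genes, the differences between replicates 1 and 2 in the 2 groups correlated at -0.0043, which cannot settle how the cultures were handled. With the replicate block, 2532 genes were higher, 3592 were lower and 4 members were lower.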

Other observations

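MIR205HG, the host transcript of the epithelial microRNA miR-205, was looked up after the values of the 10 factors had been seen. Its brightest probe set read 11.20 and 11.21 in high glucose, against 10.32 and 10.44 in normal glucose, and it was 1.77-fold higher (95% interval 1.52 to 2.06, 2 arrays in each group, limma adjusted p = 0.000931). The mature microRNA was not measured.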
